A study of Drosophila melanogaster with 16 samples.

Results

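The ovary of the late larva was read against the fat body around it in females labelled homozygous for a dLmx1a knock-out allele. Libraries of fat body dissected with the ovaries (4) were compared with libraries of fat body alone (4), over the 7816 of 16727 genes whose mean normalised count in these 8 libraries was at least 10. These 8 libraries belong to a series of 16, in which the same pair of tissues was taken from heterozygous sisters. The animals came from a balanced dLmx1a knock-out stock kept at 25°C and were collected as females at the step from late larva to prepupa (LL3/P0). Heterozygotes carried the TM3-GFP balancer chromosome and homozygotes were recognised by its absence. The genotype field gives dLmx1a delta1 over TM3-GFP for the heterozygotes. For the homozygotes it gives dLmx1a delta1 over an allele whose number counts up from sample to sample, from delta1 to delta8, so the grouping follows the titles and the libraries are called labelled homozygous. Nothing in the labels says whether the replicates came from separate animals, so each p-value measures only the spread between these libraries. All libraries hold the whole fat body, and those with ovaries hold both organs. A level with ovaries is therefore a level in the mixture, and in bulk tissue more cells of a type and more RNA per cell cannot be told apart.

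The larval fat body is the storage organ of the fly, with large polyploid cells that take up and secrete storage proteins and hold fat and glycogen. The ovary lies embedded in it as a small organ of dividing cells. In this period somatic cells of the ovary stack into terminal filaments, the first part of each ovariole, cap cells form at their base, and primordial germ cells lie among intermingled somatic cells. The filaments and cap cells become the niche that keeps germline stem cells. dLmx1a is a fly member of the Lmx1 group of LIM-homeodomain transcription factors.

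The 8 libraries held 19022106 to 32755588 reads on genes and 10203 to 10928 genes with at least 1 read. The tissues separated on the first principal component of the log2 values (67.3% of variance). Fat body replicate 1 lay furthest out on the second component, which carried 14.4%, at 53.8 against -34.9 to 22.9 for the other 7 libraries. Some results that turn on this library are given with and without it. The 6 fat body genes Lsp1alpha, Lsp1beta, Lsp1gamma, Lsp2, Fbp1 and Fbp2 took 56.9 ± 1.30% of the normalised counts in fat body and 52.8 ± 1.26% with ovaries (SD, n = 4 per group, exact 2-sided permutation p = 0.0286, the smallest this design allows). After the authors' scaling the libraries of fat body summed to 29100366 to 31919655 normalised counts and those with ovaries to 21435781 to 24257263.

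CG32105, the gene of dLmx1a itself (arm 3L, 12329232 to 12335901 of the dm6 genome), was read in the libraries with ovaries and hardly in fat body. Its normalised counts were 4.59, 0, 0.974 and 0 in fat body replicates 1 to 4 and 564, 671, 742 and 682 with ovaries. The groups did not overlap, and the log2 fold with ovaries was 8.51 ± 0.52 (SE, limma adjusted p = 1.03e-05). In heterozygotes the counts were 2.83, 23.5, 1.11 and 0 in fat body and 578, 518, 723 and 649 with ovaries, so the range with ovaries in the libraries labelled homozygous overlaps that of the heterozygotes. The test of the difference between the genotypes' tissue folds gave 1.15 ± 1.06 (adjusted p = 1.0). The labels do not say which bases the allele lacks, so reads on this gene do not check the homozygous label.

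With ovaries present, most of the listed genes of the germ line and of dividing cells rose, many of them from a few reads per library. Of the 7816 genes 1258 were higher (16.1%) and 501 lower (6.41%) with ovaries at a limma adjusted p below 0.05. The counts given for lists below are to be read beside these shares. The rises were large, with a median log2 fold of 1.65 among the genes called higher, and the falls small, with a median of -0.49 among the genes called lower. At least 1 log2 unit of rise was reached by 861 called genes (11.0%), at least 4 by 247 and at least 7 by 15, whereas 44 called genes fell by at least 1. The values of the 4 libraries per group did not overlap for 2110 genes in either direction (27.0%), among them 1216 of the genes called higher and 446 of those called lower. The genes that rose by at least 1 log2 unit took 0.150 ± 0.040% of normalised counts in fat body and 0.890 ± 0.132% with ovaries (SD, n = 4 per group). These genes were chosen by their rise in the same libraries, so the direction of that difference follows from the choice.

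**Figure D1:**
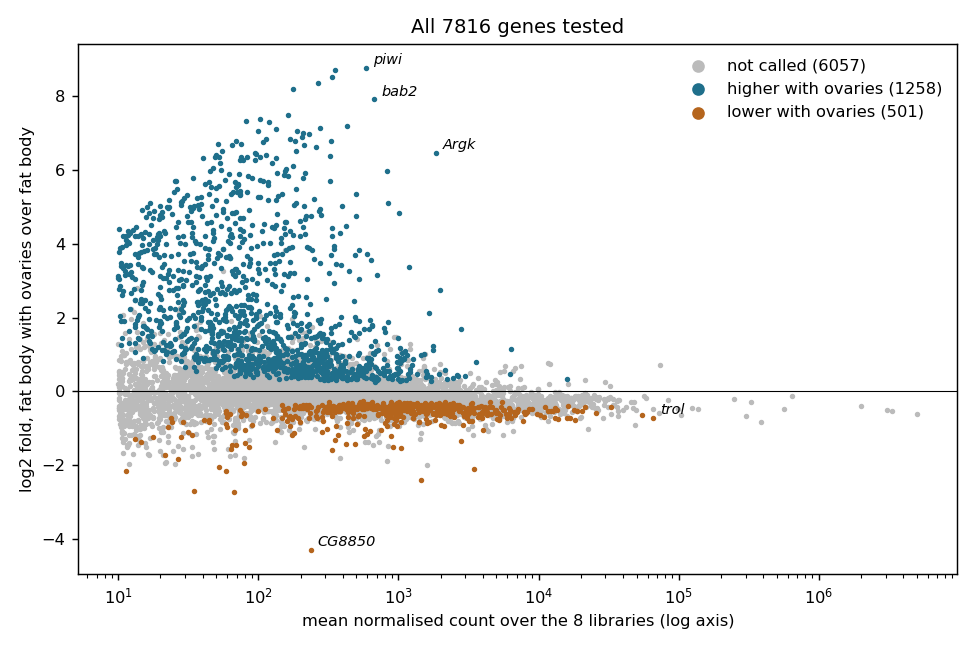
Each point is 1 of the 7816 genes tested, with its mean normalised count over the 8 libraries on a log x axis and its log2 fold with ovaries on the y axis, coloured by its limma call. The 1258 genes called higher reach 8.76 (piwi), and the 501 called lower lie mostly just under 0, with CG8850 at -4.29 as the furthest.

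The count of falls depends on scaling and on single libraries, and that of rises much less. With every library scaled to the same total, 2922 genes were higher and 24 lower. This shifted the median of all log2 folds from -0.05 to 0.37. With the replicate number as a block 1770 were higher (22.6%) and 1904 lower (24.4%), holding 1255 and 500 of the genes called without it. Without fat body replicate 1 the counts were 1664 higher (21.3%) and 1038 lower (13.3%). List counts from either of these fits are to be read beside the shares of that fit. Leaving out fat body replicate 2 or 3, or replicate 1, 3 or 4 with ovaries, gave 323, 213, 320, 217 and 225 genes lower in that order. A fall described from here on is a change relative to the median gene under the authors' scaling.

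Germ cells silence transposons with small RNAs bound by Piwi proteins, and load them in the perinuclear nuage. Of the 28 piRNA and nuage genes 24 rose and 1 fell, with a median log2 fold of 4.13 against -0.05 over all genes tested. piwi, which encodes the nuclear member of the Piwi family (arm 2L, 10982205 to 10987420), had the largest rise among the genes described. Its normalised counts were 3.06, 1.21, 0.974 and 1.996 in fat body and 1145, 1131, 1339.9 and 1073 with ovaries, and its log2 fold was 8.76 ± 0.24 (adjusted p = 5.15e-07). Every library with ovaries thus held over 1000 and every fat body library under 4. vas, the germline DEAD-box helicase gene (arm 2L, 15061656 to 15074311), stood at 6.12, 4.85, 1.95 and 4.99 in fat body and 519, 464, 576 and 483 with ovaries. The log2 fold of vas was 6.61 ± 0.27 (adjusted p = 1.49e-06), and its groups lay far apart. The nuage helicase gene spn-E (arm 3R, 15837419 to 15844415) went from 6.12, 6.07, 6.82 and 1.996 in fat body to 619, 581, 771 and 634 with ovaries (log2 fold 6.79 ± 0.30, adjusted p = 2.51e-06). mael, a nuage gene (arm 3L, 22721203 to 22726234), was at 0 in fat body replicates 2 and 4. Counts of mael were 1.53, 0, 0.974 and 0 in fat body and 212, 190.2, 222 and 173 with ovaries (log2 fold 7.06 ± 0.36, adjusted p = 4.25e-06). Both other Piwi family genes rose too, aub by 5.92 ± 0.65 (adjusted p = 0.00026) and AGO3 by 3.13 ± 0.23 (adjusted p = 2.69e-05). fs(1)Yb, known from the somatic branch of the pathway, rose by 6.84 ± 0.60 (adjusted p = 6.97e-05). tud, which encodes a Tudor-domain protein of nuage and germ plasm (arm 2R, 21183322 to 21192913), was abundant in both tissues and fell. Its counts were 8900.5, 8101, 9169 and 7294 in fat body and 5739, 6253, 6129 and 5896 with ovaries (log2 fold -0.47 ± 0.10, adjusted p = 0.0113). All 4 libraries with ovaries lay under the 4 of fat body for tud. At equal totals the list held 27 genes higher, and tud was no longer called.

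Of 21 tested genes of germ cell fate and differentiation 12 rose, with a median log2 fold of 1.14, and with the replicate block 2 others fell, exu and aret. bam, the switch from stem cell to differentiating cyst (arm 3R, 25243039 to 25245109), was read 0, 0, 0.974 and 0.998 in fat body and 43.8, 40.1, 45.2 and 32.95 with ovaries (log2 fold 4.87 ± 0.40, adjusted p = 4.75e-05). bgcn, the partner of bam (arm 2R, 23853270 to 23858921), stood at 4.59, 2.43, 3.90 and 2.99 and 63.8, 112, 105 and 84.7 (log2 fold 4.36 ± 0.27, adjusted p = 1.16e-05). nos, a translational repressor that keeps germline stem cells, stood at 1.53, 1.21, 0 and 1.996 in fat body and 61.9, 67.6, 65.5 and 61.2 with ovaries (log2 fold 5.01 ± 0.38, adjusted p = 3.5e-05). In all 3 genes the lowest library with ovaries was many times the highest of fat body. orb, which encodes a binding protein of stored mRNAs (arm 3R, 23260610 to 23280856), went from 0, 0, 0.974 and 2.99 to 109, 87.1, 129 and 106 (log2 fold 6.004 ± 0.47, adjusted p = 3.89e-05). ovo, a germline transcription factor gene, and otu, an ovarian tumour gene, rose by 4.35 ± 0.36 (adjusted p = 5.47e-05) and 4.75 ± 0.43 (adjusted p = 7.69e-05). osk, the organiser of germ plasm in later oogenesis, was under the minimum for testing, with 0, 1.21, 0 and 0.998 in fat body and 0, 4.58, 4.68 and 3.14 with ovaries. A check of the fat body libraries used the 33 genes of the piRNA and germ cell lists that were called and rose by at least 1 log2 unit. That choice itself makes their level in fat body low. In fat body replicates 1 to 4 the median gene stood at 5.01, 2.65, 1.76 and 3.15% of its mean with ovaries. Fat body replicate 1 is the highest of these, and the part of ovarian tissue in that value was not tested.

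Among ribosomal protein genes the few rises were those of alternative gene copies. Of 87 tested cytosolic ribosomal protein genes 4 rose, RpS5b, RpS19b, RpS10a and RpS15Ab, and the median log2 fold was -0.17. RpS5b (arm 3R, 14900432 to 14901563) was read 1.53, 1.21, 2.92 and 1.996 in fat body and 375, 347, 432 and 348 with ovaries (log2 fold 7.04 ± 0.22, adjusted p = 5.15e-07). Its near copy RpS5a held 23871, 20892, 22071 and 17876 in fat body and 21141, 20970.4, 19230.2 and 17379 with ovaries (-0.10 ± 0.13, adjusted p = 0.593). Per kilobase of exon RpS5b stood at 2.02 normalised counts in fat body and 395 with ovaries, against 15280.0 and 14200.0 for RpS5a. RpS19b (arm 3R, 23932729 to 23933530) went from 0, 2.43, 3.90 and 0.998 to 180.1, 169.6, 231 and 166 (log2 fold 6.27 ± 0.47, adjusted p = 2.99e-05), and RpS19a gave -0.16 ± 0.12 (adjusted p = 0.336). RpS10a (arm 3R, 27652760 to 27653363) went from 0, 0, 2.92 and 0 to 44.8, 40.1, 47.6 and 22.8 (log2 fold 4.77 ± 0.55, adjusted p = 0.00036), and RpS10b gave -0.13 ± 0.12 (adjusted p = 0.461). RpS15Ab rose by 0.30 ± 0.087 (adjusted p = 0.0412), and leaving out any library but fat body replicate 1 ended that call, at an adjusted p of up to 0.102. The split of reads within such a pair is uncertain, as the sources used here do not give the rule for shared reads. With the replicate block 13 cytosolic ribosomal protein genes were lower, and at equal totals 13 were higher.

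**Figure D2:**
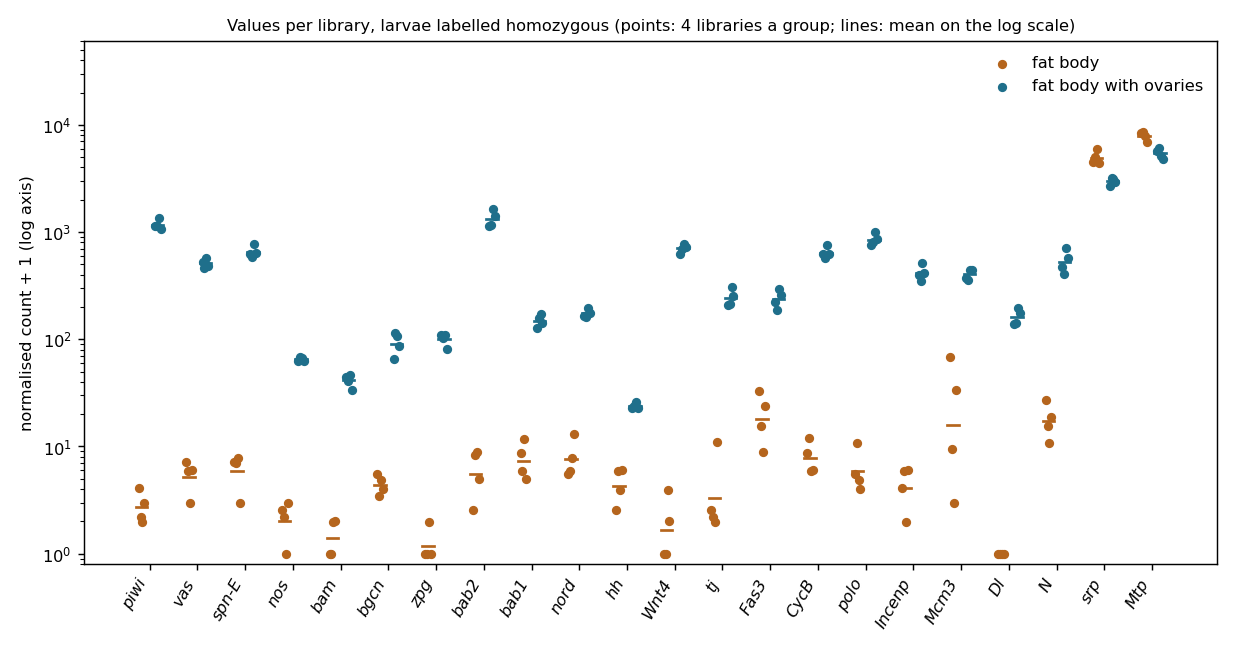
Points are the normalised counts plus 1 of single libraries on a log axis for 22 genes, in fat body and in fat body with ovaries, and lines are means on the log scale. The 4 libraries with ovaries lie above the 4 of fat body for every gene drawn except srp and Mtp, for which they lie below.

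Genes known from the stem cell niche and from other somatic cells of the ovary rose in part. Of 8 tested terminal filament and cap cell genes 5 rose, bab2, bab1, nord, Dl and hh, with a median log2 fold of 3.40. bab2 and bab1 encode paired transcription factors needed for terminal filaments. bab2 (arm 3L, 1140429 to 1177276) was read 1.53, 7.28, 7.80 and 3.99 in fat body and 1149, 1155, 1628 and 1423 with ovaries (log2 fold 7.91 ± 0.38, adjusted p = 3.61e-06). bab1 (arm 3L, 1036369 to 1101089) was read 7.65, 4.85, 10.7 and 3.99 in fat body and 128, 156, 172 and 140.4 with ovaries (log2 fold 4.34 ± 0.29, adjusted p = 1.55e-05). Per kilobase of exon the level with ovaries was 260.0 for bab2 and 27.9 for bab1. nord, a secreted modulator of signals (arm 2R, 24243255 to 24255094), went from 4.59, 4.85, 6.82 and 11.98 to 164, 160.4, 197 and 174 (log2 fold 4.52 ± 0.28, adjusted p = 1.07e-05). The groups did not overlap in any of these genes. LamC, a lamin used to mark these cells, gave -0.03 ± 0.25 (adjusted p = 0.944) from high levels in both tissues. en and inv, the engrailed pair of homeobox genes, were too low to test, with 6.67, 3.44, 2.34 and 5.49 for en and 5.72, 10.3, 8.58 and 9.42 for inv with ovaries.

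Of 13 tested genes of other ovarian somatic cells 8 rose, with a median of 1.30. Wnt4, a Wnt ligand gene with a known part in somatic cell movement in the ovary (arm 2L, 7255419 to 7277171), stood at 0, 0, 2.92 and 0.998 in fat body and 622, 698, 779.9 and 722 with ovaries. Its log2 fold of 8.72 ± 0.43 (adjusted p = 3.61e-06) rests on fat body libraries with 3 reads or fewer. tj, the Maf factor of intermingled cells (arm 2L, 19464267 to 19467758), went from 1.53, 1.21, 0.974 and 9.98 to 209.7, 214, 307 and 251 (log2 fold 6.20 ± 0.52, adjusted p = 6e-05). Fas3, an epithelial adhesion gene (arm 2L, 18320102 to 18393441), went from 32.1, 14.6, 7.80 and 22.96 to 221, 188, 293 and 255 (log2 fold 3.71 ± 0.38, adjusted p = 0.000185). Wnt2 (arm 2R, 9494166 to 9503188), another ligand gene, was read in fat body replicate 4 only, and stood at 34.3, 30.9, 40.6 and 26.7 with ovaries (log2 fold 4.83 ± 0.41, adjusted p = 6.05e-05). Sox100B, the fly Sox9 relative of the gonad, rose by 3.24 ± 0.56 (adjusted p = 0.00355). eya and so, a pair of cofactor genes of somatic gonad cells, did not pass, with -0.51 ± 0.66 (adjusted p = 0.604) and 1.29 ± 0.70 (adjusted p = 0.221). In the blocked fit eya fell (adjusted p = 0.0287), and the list held 9 genes higher and 2 lower. Without replicate 3 or 4 with ovaries 5 genes of the list were called higher.

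Several of the steepest rises fell on genes outside these lists. dec-1, an eggshell protein gene (chromosome X, 7867161 to 7873222), went from 0, 2.43, 0 and 0.998 to 461, 530.4, 666 and 478 (log2 fold 8.35 ± 0.41, adjusted p = 3.61e-06). otk, a receptor pseudokinase gene (arm 2R, 12001473 to 12019846), was at 0 in 3 fat body libraries and at 1 read in the other, and stood at 312, 300.1, 413 and 386 with ovaries (log2 fold 8.20 ± 0.29, adjusted p = 9.66e-07). croc, a forkhead factor gene (arm 3L, 21474133 to 21476479), went from 4.59, 0, 0.974 and 0 to 314, 294, 370.5 and 323 (log2 fold 7.48 ± 0.52, adjusted p = 2.15e-05). metro (arm 2R, 11226458 to 11232516) went from 0, 3.64, 0 and 1.996 to 268, 241, 286 and 273 (log2 fold 7.11 ± 0.51, adjusted p = 2.28e-05). In each of these the groups lay far apart. In counts rather than folds, Argk, the arginine kinase that buffers ATP (arm 3L, 9048781 to 9066027), was among the largest gains. It held 41.3, 95.9, 16.6 and 36.9 in fat body and 3263, 2926, 4128 and 4288 with ovaries (log2 fold 6.47 ± 0.45, adjusted p = 1.96e-05). The chromatin genes HmgD and Df31 gained from high levels, HmgD from 402, 664, 391.7 and 628 to 3239, 3196, 3639.8 and 3700.2 (log2 fold 2.76 ± 0.19, adjusted p = 2e-05) and Df31 by 1.69 ± 0.13 (adjusted p = 3.56e-05). rgn rose by 4.82 ± 0.41 (adjusted p = 6.15e-05), with 168, 40.1, 67.2 and 44.9 in fat body and 1644, 1777, 2371 and 1998 with ovaries. 14-3-3epsilon, a phosphoprotein adaptor gene, rose by 0.48 ± 0.081 (adjusted p = 0.00324). The tubulin genes betaTub56D (1.16 ± 0.34, adjusted p = 0.041) and alphaTub84B (0.34 ± 0.11, adjusted p = 0.0487) were called, but leaving out any library other than fat body replicate 1 ended both calls, and edgeR called neither.

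Some genes had no read in any of the 4 fat body libraries. The 9 tested were Dl, cona, CG8316, CG14932, bora, CG31125, CG15398, CG7730 and CG6927, and all 9 were called higher. Without a read in fat body, these genes met the minimum for testing only through the libraries with ovaries. Their shared direction therefore follows from the choice and is not a separate result. cona, a synaptonemal complex gene of meiosis (arm 3R, 18385828 to 18386887), stood at 98.2, 109.98, 105 and 98.9 with ovaries, at least 29.1-fold higher than the 3 reads per library taken as the floor. bora, an activator of Aurora A kinase in mitosis (arm 3L, 18622692 to 18624751), stood at 42.9, 52.7, 56.9 and 51.0 with ovaries, at least 14.4-fold higher. CG8316 on the X chromosome stood at 80.2 ± 12.2 (SD, n = 4), at least 22.7-fold higher, and CG14932 on arm 2L at 51.4 ± 7.71, at least 14.5-fold higher. In heterozygous fat body 8 of these 9 genes had reads in at least 1 library. Counting genes too low to test, 82 genes had no read in fat body and reads in all 4 libraries with ovaries.

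Notch signalling passes between touching cells and is known to set the number of niche cells. Of 13 tested Notch genes 6 rose, with a median log2 fold of 0.63. Dl, the ligand, was read in none of the fat body libraries and stood at 139, 139.8, 194 and 176 with ovaries, at least 45.9-fold higher than the floor (adjusted p = 8.35e-07). N, the receptor (chromosome X, 3134870 to 3172221), went from 26.01, 14.6, 9.74 and 17.97 to 472, 403, 706 and 567 (log2 fold 4.94 ± 0.29, adjusted p = 9.14e-06). The second ligand Ser rose by 2.20 ± 0.57 (adjusted p = 0.026), a call that ended without fat body replicate 3 or any 1 library with ovaries (adjusted p of up to 0.074). fng, the glycosyltransferase that tunes the receptor (arm 3L, 20925891 to 20949512), went from 76.5, 80.1, 150.1 and 151 to 285, 300.1, 409 and 376 (log2 fold 1.63 ± 0.26, adjusted p = 0.00256). The target gene E(spl)mbeta-HLH (arm 3R, 26005046 to 26006023) went from 0, 4.85, 1.95 and 0 to 37.2, 25.2, 35.9 and 54.1 (log2 fold 4.21 ± 0.63, adjusted p = 0.00153). For these 5 genes the groups did not overlap. The genes kuz, Psn and nct, which serve the cleavage of the receptor, were called lower with the replicate block.

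Hedgehog is secreted by terminal filament and cap cells. Of 10 tested genes of its pathway 5 rose, with a median of 0.64. hh, the ligand (arm 3R, 23128169 to 23141906), stayed low, with 1.53, 4.85, 2.92 and 4.99 in fat body and 21.9, 22.9, 24.96 and 21.97 with ovaries (log2 fold 2.47 ± 0.36, adjusted p = 0.00136). ptc, the receptor and target (arm 2R, 8649649 to 8665223), went from 70.4, 40.1, 41.9 and 69.9 to 277, 285, 371 and 381 (log2 fold 2.58 ± 0.23, adjusted p = 7.47e-05). The coreceptor genes boi and ihog rose by 4.42 ± 0.44 (adjusted p = 0.000149) and 1.48 ± 0.13 (adjusted p = 8.16e-05), from 7.65, 26.7, 4.87 and 10.98 to 192, 209, 278 and 309 for boi. ci, the transcription factor of the pathway, rose from a high level by 0.88 ± 0.15 (adjusted p = 0.00348). smo, the signal transducer, did not pass (0.40 ± 0.16, adjusted p = 0.115), but rose with the replicate block (adjusted p = 0.0307).

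Of 15 tested Wnt genes 6 rose, with a median of 0.34. Beside Wnt4 and Wnt2, the ligand gene Wnt5 (chromosome X, 18501401 to 18505405) went from 4.59, 8.496, 3.90 and 6.99 to 136, 114.6, 161 and 158 (log2 fold 4.40 ± 0.26, adjusted p = 8.77e-06). wls, the carrier that brings Wnt proteins to the surface (arm 3L, 11166620 to 11169625), went from 48.95, 71.6, 68.2 and 45.9 to 256, 275, 287 and 303 (log2 fold 2.26 ± 0.17, adjusted p = 3.06e-05). The groups were separate for both. wg, the founding ligand, was too low to test, with 2.86, 3.44, 2.34 and 0 with ovaries. With the replicate block 7 genes of the list were higher and 2 lower, fz2 and pan.

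BMP signals from the niche keep germline stem cells. Of 16 tested genes of the pathway 2 rose and 2 fell, with a median of -0.01. Over all genes tested 16.1% rose and 6.41% fell. dlp, a glypican that holds ligands at the cell surface (arm 3L, 14632601 to 14671609), went from 13.8, 29.1, 13.6 and 18.97 to 204, 225, 317 and 259 (log2 fold 3.71 ± 0.26, adjusted p = 2.17e-05). dally, the other glypican gene, gave 0.30 ± 0.17 (adjusted p = 0.25) and the ligand gene dpp 0.33 ± 0.36 (adjusted p = 0.536). sax, a type I receptor gene, rose by 0.51 ± 0.11 (adjusted p = 0.012). tok, a protease gene, and sog, a ligand antagonist, fell. tok held 6451, 6017, 8514 and 8894 in fat body and 3838, 4192, 4855 and 5177 with ovaries (log2 fold -0.72 ± 0.16, adjusted p = 0.0146). sog held 225, 189, 206 and 257 in fat body and 123, 126, 69.4 and 157 with ovaries (log2 fold -0.93 ± 0.24, adjusted p = 0.0253), a call that ended without fat body replicate 3 or 4 (adjusted p of 0.0568 and 0.067). With the replicate block 5 genes of the list rose and 5 fell, and at equal totals 7 rose and neither tok nor sog was called. Without fat body replicate 1 or 2 the list held 4 rises.

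Of 16 EGF receptor genes 4 rose, beside 16.1% of all genes tested, with a median of 0.21. The ligand gene vn (arm 3L, 5813338 to 5845664) went from 7.65, 12.1, 4.87 and 16.97 to 43.8, 42.4, 53.8 and 35.3 (log2 fold 2.08 ± 0.36, adjusted p = 0.00364). rho, the protease that releases ligands, rose by 2.61 ± 0.49 (adjusted p = 0.00557), the inhibitor kek1 by 0.97 ± 0.18 (adjusted p = 0.00489) and S, a chaperone of ligands, by 0.62 ± 0.17 (adjusted p = 0.033). Leaving out fat body replicate 2 or 3, or replicate 2, 3 or 4 with ovaries, ended the call of S (adjusted p of up to 0.0956). With the block 6 genes of the list were higher and 3 lower. Of 6 tested JAK/STAT genes the receptor dome rose by 0.71 ± 0.13 (adjusted p = 0.00481) and Su(var)2-10, an inhibitor, by 0.57 ± 0.097 (adjusted p = 0.00348). et, a receptor-like inhibitor, fell (-0.41 ± 0.11, adjusted p = 0.0259), and at equal totals its sign turned. The 3 upd ligand genes were read at most 3 times in any library, too few to test. With the block Stat92E, the transcription factor of the pathway, was lower as well (adjusted p = 0.00157).

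Most genes of the 3 cell division lists rose. Of 32 cell cycle regulators 24 rose (median log2 fold 3.70), of 33 tested DNA replication genes 27 rose (median 2.10), and of 33 kinetochore, spindle and condensin genes 30 rose (median 3.72). polo, the mitotic kinase (arm 3L, 20309654 to 20313466), went from 4.59, 9.71, 3.90 and 2.99 to 759, 805, 991 and 854 (log2 fold 7.18 ± 0.29, adjusted p = 1.38e-06). pav, the kinesin of cytokinesis (arm 3L, 4242734 to 4246233), went from 4.59, 2.43, 1.95 and 2.99 to 506, 501, 643 and 525 (log2 fold 7.13 ± 0.22, adjusted p = 5.15e-07). fzy, an activator of the anaphase-promoting complex (arm 2L, 16310956 to 16313097), went from 4.59, 3.64, 3.90 and 2.99 to 289, 289, 348 and 314 (log2 fold 6.03 ± 0.17, adjusted p = 5.15e-07). These 3 genes were close to absent from fat body, though the lists they belong to were not. The summed level of the kinetochore, spindle and condensin genes was 3771 to 5004 normalised counts in fat body and 10190 to 12530 with ovaries, and that of the cell cycle regulators 3787 to 5055 and 10410 to 12580. CycA (4.78 ± 0.15, adjusted p = 5.15e-07), CycB (6.37 ± 0.24, adjusted p = 1.11e-06) and the anillin gene scra (4.22 ± 0.14, adjusted p = 7.07e-07) rose, as did stg, the Cdc25 phosphatase of entry into mitosis (4.21 ± 0.21, adjusted p = 3.61e-06). E2f, the S phase factor, was abundant in both tissues and did not pass (0.14 ± 0.20, adjusted p = 0.658). In the cell cycle list rap was lower with the replicate block.

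The spindle motor gene Klp61F (arm 3L, 1241568 to 1245910) went from 3.06, 3.64, 0.974 and 1.996 to 401, 380.3, 479 and 404 (log2 fold 6.999 ± 0.28, adjusted p = 1.22e-06). Incenp, of the chromosomal passenger complex (arm 2R, 7278467 to 7281795), went from 3.06, 4.85, 0.974 and 4.99 to 399, 352, 512 and 413 (log2 fold 6.67 ± 0.35, adjusted p = 5.63e-06). The condensin gene barr rose by 4.80 ± 0.24 (adjusted p = 3.61e-06) and the checkpoint gene rod by 4.46 ± 0.22 (adjusted p = 3.61e-06). Top2, topoisomerase II (arm 2L, 19447365 to 19453490), held more reads, 330.4, 209.97, 154 and 171 in fat body and 2133, 1841, 2433 and 2293 with ovaries (log2 fold 3.38 ± 0.23, adjusted p = 1.8e-05).

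Fat body cells endoreplicate, and the DNA replication genes summed to 1808 to 4150 normalised counts in fat body and 9041 to 11110 with ovaries. Gnf1, the large subunit of the clamp loader (arm 3R, 4906622 to 4910081), went from 169.8, 166, 155 and 178 to 423, 434, 494 and 443 (log2 fold 1.42 ± 0.095, adjusted p = 1.71e-05). RpA-70, of the single-strand binding complex (arm 3R, 8262120 to 8264451), went from 522, 409, 399 and 468 to 911, 835, 934 and 904 (log2 fold 1.001 ± 0.11, adjusted p = 0.000248). Fen1 rose by 1.70 ± 0.12 (adjusted p = 2.77e-05) and RPA2 by 1.76 ± 0.17 (adjusted p = 0.000135). The fat body libraries differed widely among themselves in other genes of this list. PCNA, the sliding clamp, held 139, 15.8, 3.90 and 57.9 in fat body against 594, 557, 657 and 650.4 with ovaries (log2 fold 4.42 ± 0.90, adjusted p = 0.00829), and the helicase gene Mcm3 67.3, 8.496, 1.95 and 32.9 against 374, 359, 441 and 443 (log2 fold 4.66 ± 0.85, adjusted p = 0.00496). Fat body replicate 1 was the highest of its group for both and replicate 3 the lowest.

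Cell contact genes moved in part. Of 29 adhesion and polarity genes 11 rose, with a median of 0.37, and 15 did with the replicate block. Nrt, a transmembrane adhesion gene (arm 3L, 16766072 to 16777465), went from 9.18, 13.4, 14.6 and 23.96 to 320.2, 333, 447 and 413 (log2 fold 4.60 ± 0.27, adjusted p = 8.25e-06). ed, an immunoglobulin-domain adhesion gene (arm 2L, 4031377 to 4115749), went from 32.1, 8.496, 7.80 and 26.95 to 354, 364, 594 and 528 (log2 fold 4.75 ± 0.46, adjusted p = 0.000134). The teneurin gene Ten-a rose by 4.01 ± 0.26 (adjusted p = 1.55e-05), the apical polarity gene baz by 3.49 ± 0.33 (adjusted p = 0.000102) and Fas2, the fly NCAM, by 2.12 ± 0.26 (adjusted p = 0.000534). shg, the E-cadherin gene, varied widely within both groups, with 623, 2438, 1777 and 2936 in fat body and 1121, 1810.1, 1777 and 2369.5 with ovaries, and did not pass (0.03 ± 0.47, adjusted p = 0.971). Of 5 tested gap junction genes 3 rose. zpg, the germline innexin (arm 3L, 6604366 to 6606032), had 1 read in the fat body libraries together and stood at 109, 101, 109 and 80.03 with ovaries (log2 fold 6.40 ± 0.34, adjusted p = 5.36e-06), while Inx2 and Inx3 rose by 0.91 ± 0.21 (adjusted p = 0.0147) and 0.47 ± 0.10 (adjusted p = 0.0115).

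Basement membrane genes went both ways, with 2 of 15 up and 3 down and a median of -0.31, beside 16.1% and 6.41% of all genes tested. Ppn, a matrix glycoprotein gene (arm 3R, 28520665 to 28540324), went from 130.03, 37.6, 30.2 and 28.9 to 1257, 1464, 1948 and 1809 (log2 fold 5.10 ± 0.45, adjusted p = 6.98e-05), with fat body replicate 1 the highest of its group. Pxn, a matrix peroxidase gene that blood cells also make, rose by 1.77 ± 0.30 (adjusted p = 0.00338). trol, the perlecan gene (chromosome X, 2470460 to 2545427), is made in quantity by fat body and fell, from 60774, 85595, 95342 and 82323 to 40144, 58898, 53240.5 and 44821 (log2 fold -0.71 ± 0.19, adjusted p = 0.0295). BM-40-SPARC, a collagen chaperone gene, and vkg, a collagen IV gene, fell with log2 folds of -0.57 ± 0.15 (adjusted p = 0.029) and -0.78 ± 0.24 (adjusted p = 0.0469). No member was called lower at equal totals or without fat body replicate 2 or 4 or replicate 3 or 4 with ovaries, while edgeR called 2, DESeq2 6 and the replicate block 7. In either direction 10 of the 15 had an unadjusted p below 0.05, as did 2861 of all 7816 genes tested.

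Of 6 tested Hox genes and cofactors 1 rose and 1 fell, and with the replicate block 3 fell. abd-A, the Hox gene of the abdominal segments in which the gonad forms (arm 3R, 16807214 to 16830049), went from 3222, 2832, 2422 and 1989 to 4357, 3425, 4874 and 5453 (log2 fold 0.79 ± 0.19, adjusted p = 0.0176). Antp, of thoracic segments, went from 936, 1333, 1229 and 1389 to 636, 975, 785 and 916, with overlap (log2 fold -0.56 ± 0.17, adjusted p = 0.0487). The call of abd-A ended without fat body replicate 3 or without replicate 3 or 4 with ovaries (adjusted p of up to 0.0575), and that of Antp without any library but fat body replicate 1 and replicate 2 with ovaries (adjusted p of up to 0.118). Of 17 tested ecdysone response genes 3 rose, a share near the 16.1% of all genes tested, with a median of -0.37. ImpE1, an ecdysone-inducible gene of imaginal tissue (arm 3L, 8372405 to 8391171), went from 4.59, 3.64, 0.974 and 1.996 to 113, 129, 172 and 166 (log2 fold 5.36 ± 0.35, adjusted p = 1.55e-05). ImpE3 rose by 1.53 ± 0.27 (adjusted p = 0.0045) and ftz-f1, the competence factor of the prepupal response, by 1.55 ± 0.37 (adjusted p = 0.0176), which without replicate 3 of either tissue was at 0.0545 and 0.0521. The receptor gene EcR gave -0.61 ± 0.20 (adjusted p = 0.0573). With the replicate block, where 24.4% of all genes tested were lower, EcR fell (adjusted p = 0.00142) with 8 other genes of the list. The list held 5 falls without fat body replicate 1, where 13.3% of all genes tested were lower.

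Of 25 fat body genes 3 fell, srp, Hnf4 and Mtp, with a median log2 fold of -0.35. The summed level of the list was 18010000 to 19080000 normalised counts in fat body and 11530000 to 13360000 with ovaries, without overlap, as was the case for the totals over all genes given above. srp, the GATA factor of fat body and blood cells (arm 3R, 15986152 to 16004085), went from 4540.5, 4959, 5943 and 4401 to 2659.8, 3207, 3129.8 and 2931 (log2 fold -0.73 ± 0.12, adjusted p = 0.00301). Mtp, which loads lipid onto lipoproteins (arm 2L, 20919094 to 20922876), went from 8362, 8529.8, 7909 and 6969.7 to 5721, 6100.4, 5121 and 4847 (log2 fold -0.55 ± 0.11, adjusted p = 0.00955). Hnf4, a nuclear receptor of lipid use, fell too (-0.502 ± 0.10, adjusted p = 0.00817). In all 3 the libraries with ovaries lay under those of fat body. The storage protein genes did not pass. Lsp1alpha varied widely within both groups, with 1949970.0, 138340.0, 516860.0 and 449103 in fat body and 986695, 217956, 523744 and 385462 with ovaries (-0.13 ± 0.78, adjusted p = 0.915). Fbp1, the storage protein receptor gene, gave -0.61 ± 0.41 (adjusted p = 0.311). With the replicate block 10 genes of the list fell, and at equal totals srp, Mtp and Hnf4 were not called, the median of the list standing at 0.08.

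Among the steepest named falls were genes of detoxification and of other functions. Cyp4ac1, a cytochrome P450 gene (arm 2L, 5264001 to 5265899), went from 859.8, 313, 450.2 and 394 to 255, 149, 144 and 108 (log2 fold -1.58 ± 0.35, adjusted p = 0.0126). Cyp12a4, another, went from 213, 58.3, 123 and 85.8 to 57.2, 28.6, 53.03 and 29.03 (log2 fold -1.40 ± 0.41, adjusted p = 0.0421), a call lost without fat body replicate 3 or 4 or any 1 library with ovaries. Ect3, of the beta-galactosidase family (arm 3R, 11999278 to 12003516), went from 1002, 1143, 1099 and 2192 to 498, 533, 282 and 569 (log2 fold -1.502 ± 0.30, adjusted p = 0.00781). Fat body was higher in every library of these 3 genes. Falls were also called for kar (-1.20 ± 0.28, adjusted p = 0.0153), the noncoding RNA pncr016:2R (-1.13 ± 0.15, adjusted p = 0.000715), pn (-1.09 ± 0.24, adjusted p = 0.0113), Lrt (-1.08 ± 0.20, adjusted p = 0.00544) and the ion channel gene Ih (-0.94 ± 0.20, adjusted p = 0.0111). PGRP-SA, a receptor for bacterial cell wall that acts in Toll signalling (chromosome X, 11561643 to 11562779), went from 890.4, 1047, 1149 and 1249.8 to 693, 516, 472 and 598 (log2 fold -0.93 ± 0.15, adjusted p = 0.00277). It was the only one of 18 tested immune genes called, and with the block 6 were lower and 1 higher. The furthest fall of all was that of CG8850 on arm 2R, from a mean of 451 to 20.4 normalised counts (log2 fold -4.29 ± 0.86, adjusted p = 0.00792).

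Of 13 glycolytic genes Gapdh1 fell (-0.42 ± 0.11, adjusted p = 0.0289), a share near the 6.41% of all genes tested. Of 18 tested autophagy genes Atg4a, Atg5 and Atg9 fell, with log2 folds of -0.39 ± 0.11 (adjusted p = 0.0367), -0.47 ± 0.14 (adjusted p = 0.0441) and -0.41 ± 0.12 (adjusted p = 0.0405). All 18 autophagy folds were below 0, with a median of -0.36. Without fat body replicate 1, or with the replicate block, 9 of them fell, and with the block 4 glycolytic genes did. Leaving out any library but fat body replicate 1 and replicate 2 with ovaries ended the calls of all 3. At equal totals the signs of Gapdh1, Atg4a and Atg9 turned and the list's median was 0.07.

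Few mitochondrial ribosomal protein genes passed the test, 4 of 72, a smaller share than the 16.1% of all genes tested. Their folds had a median of 0.23, or 0.65 at equal totals, and 62 lay above 0. The 4 called were mRpL19 (0.58 ± 0.11, adjusted p = 0.00645), mRpL23 (1.21 ± 0.36, adjusted p = 0.0441), mRpL27 (0.66 ± 0.17, adjusted p = 0.0271) and mRpL34 (0.79 ± 0.20, adjusted p = 0.0231). The count was 33 without fat body replicate 1, 18 with the replicate block and 40 at equal totals, and between 1 and 2 without fat body replicate 3 or 4 or any 1 library with ovaries. Of 32 tested proteasome genes 1 rose, Rpt3R (arm 3R, 9754735 to 9756510), from 4.59, 1.21, 5.85 and 4.99 to 28.6, 25.2, 23.4 and 19.6 (log2 fold 2.40 ± 0.41, adjusted p = 0.00351), while Rpt3, the subunit it resembles, gave -0.06 ± 0.11 (adjusted p = 0.732). At equal totals 28 proteasome genes were higher, and with the replicate block 2 were higher and 2 lower. In the 11 tested heat shock and stress genes limma called 0, edgeR 0 and DESeq2 1, Hsp67Bc, and 1 had an unadjusted p below 0.05. Hsp67Bc ranged from 1.53, 16.99, 0 and 23.96 in fat body to 16.2, 24.1, 294 and 73.8 with ovaries (3.26 ± 1.23, adjusted p = 0.0932). In the blocked fit 2 genes of the list were lower, stv (adjusted p = 0.017) and GstD1 (adjusted p = 0.0088).

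**Figure D3:**
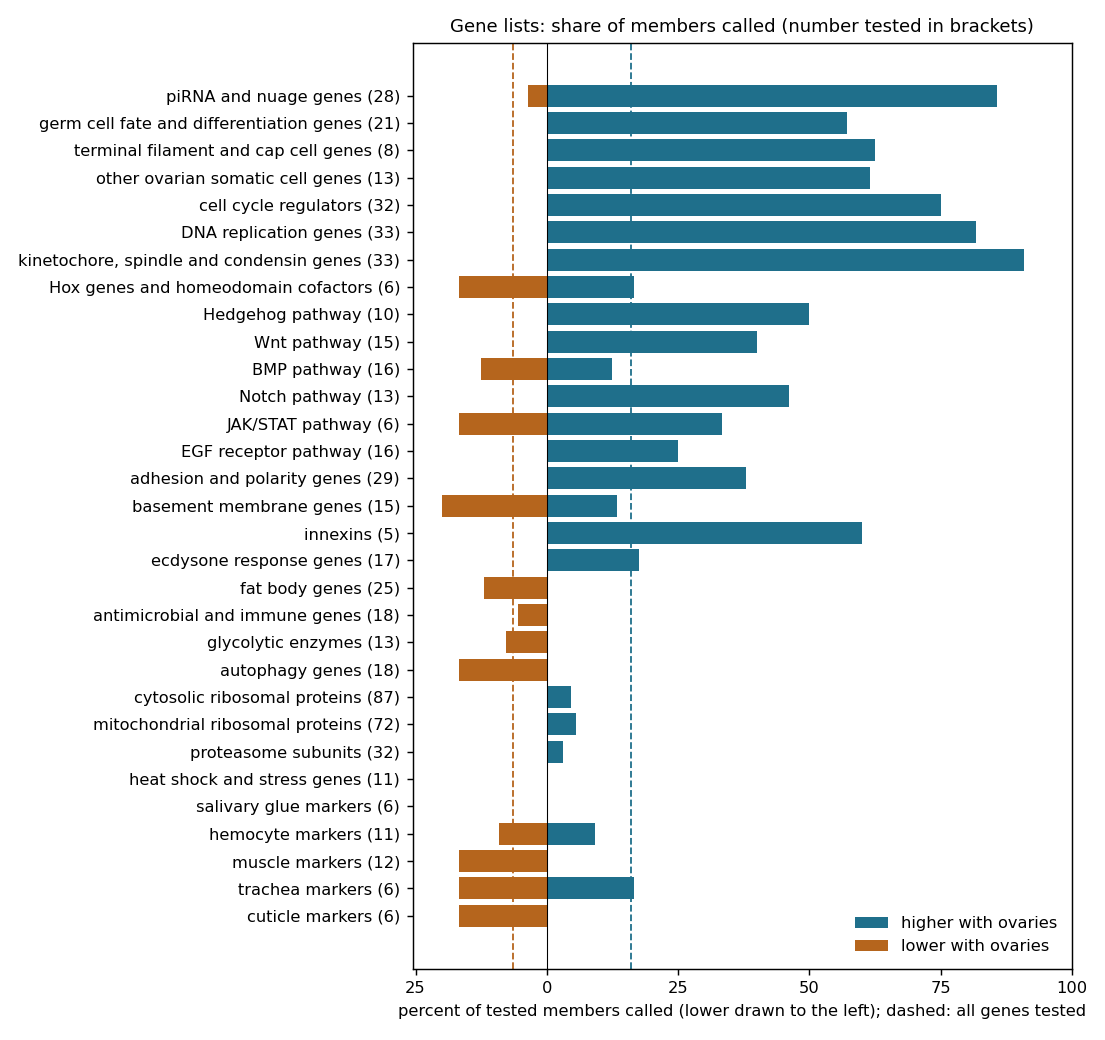
Bars give the percent of tested members called higher (right) and lower (left) with ovaries for each list with at least 5 tested members, and dashed lines the same for all genes tested, 16.1% and 6.41%. The kinetochore, piRNA, DNA replication and cell cycle lists stand furthest to the right of the dashed line.

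Markers of tissues that lie near the fat body were followed to see what else the dissections held. The summed normalised counts of 8 salivary glue genes ran from 4.99 to 163 in fat body and from 15.7 to 3377 with ovaries. Of the 6 tested, limma, edgeR and DESeq2 called 0, and 0 had an unadjusted p below 0.05. Replicate 2 with ovaries stood apart, as in Sgs4 at 1.91, 258, 13.3 and 3.14 with ovaries. Of 11 tested hemocyte genes Pxn rose and crq fell (-0.41 ± 0.13, adjusted p = 0.0493), and the summed level ran from 2289 to 11260 in fat body and from 2429 to 6928 with ovaries. Hml, a defining hemocyte gene, gave 0.11 ± 0.48 (adjusted p = 0.882). The call of crq held without fat body replicate 1 but ended without any other library, and at equal totals its sign turned.

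Of 12 tested muscle genes TpnC73F, a troponin C gene, and bt, a titin relative, fell, with log2 folds of -1.46 ± 0.34 (adjusted p = 0.0165) and -0.67 ± 0.15 (adjusted p = 0.0152). The summed muscle level was 2972 to 5039 in fat body and 2164 to 2894 with ovaries, and the myosin gene Mhc held 50.5, 36.4, 18.5 and 22.96 and 22.9, 12.6, 9.36 and 17.3. In the blocked fit Mhc was lower (adjusted p = 0.027) and Act87E, an actin gene, higher (adjusted p = 0.0306). At equal totals 0 muscle genes were lower and 1 was higher, with a median log2 fold of -0.55. The muscle level thus moved with the tissue contrast under the authors' scaling, and its part in other falls was not tested. Of 3 tested neuron genes 2 were called, both higher. Snap25 (3.38 ± 0.58, adjusted p = 0.00353) and elav (1.76 ± 0.40, adjusted p = 0.0145) rose, with elav at 24.5, 16.99, 8.77 and 36.9 in fat body and 69.6, 48.1, 77.99 and 80.8 with ovaries. The third, Syt1, gave -0.27 ± 0.19 (adjusted p = 0.344) and fell with the replicate block (adjusted p = 0.0139). The list summed to 9766 to 15150 in fat body and 8485 to 12770 with ovaries. Of 6 tested trachea genes apt, which ovarian somatic cells also express, rose by 5.40 ± 0.74 (adjusted p = 0.00097), and the tracheal receptor gene btl fell (-0.78 ± 0.23, adjusted p = 0.0457), a call lost without fat body replicate 2 or 4 or without replicate 1, 2 or 3 with ovaries. With the block trh was lower too (adjusted p = 0.047).

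Pcp was the only one of 6 tested cuticle genes called (-1.18 ± 0.34, adjusted p = 0.0369), and its call held only without fat body replicate 1 or replicate 3 with ovaries among the omissions of single libraries. With the block Cpr49Ac was lower too (adjusted p = 0.0494). The sums over these lists were 75.03 to 290.7 and 229 to 315 for trachea, and 83320 to 191800 and 83610 to 134800 for cuticle, in fat body and with ovaries in that order. Of 4 tested testis genes mia and achi rose, by 1.99 ± 0.36 (adjusted p = 0.00498) and 0.65 ± 0.14 (adjusted p = 0.0102), and roX2 was at 0 in all 8 libraries. Of the imaginal disc list Ubx (-1.09 ± 0.36, adjusted p = 0.0618) and ap (-0.33 ± 0.16, adjusted p = 0.189) were tested, and both fell with the replicate block (adjusted p of 0.006 and 0.0348). The gut list was represented by LM408 (-0.70 ± 0.34, adjusted p = 0.167), which fell with the block (adjusted p = 0.0113) and without fat body replicate 1 (adjusted p = 0.0201). The ring gland list was represented by Ptth (0.26 ± 0.50, adjusted p = 0.732).

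The same tissue contrast in heterozygotes uses the other 8 libraries and shares none with the one described so far. In its own fit 1521 genes were higher and 1050 lower. Of the genes higher here, 1135 were also higher there, which is 90.2% of the 1258 and 74.6% of the 1521. For genes at least 1 log2 unit higher the overlap was 745, 86.5% of 861 and 87.0% of 856. For genes lower it was 353, 70.5% of 501 and 33.6% of 1050. No gene (0) was called in opposite directions. A difference in these counts is not a difference in effect, which the fit over all 16 libraries tested for each gene.

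That test called 4 of 7816 genes (0.0512%), and 180 had an unadjusted p below 0.05, fewer than the 1 in 20 that chance gives. As only heterozygotes carried the TM3-GFP balancer, an effect of the dLmx1a allele and one of the balancer cannot be told apart. Spc105R, a kinetochore scaffold gene (arm 3L, 20800410 to 20806853), rose more in the libraries labelled homozygous. It stood at 7.65, 1.21, 4.87 and 4.99 in fat body and 274, 268, 353 and 302 with ovaries there, and at 30.2, 25.6, 24.5 and 17.2 and 200.1, 131, 210.1 and 211 in heterozygotes. The log2 folds were 5.87 ± 0.39 and 2.90 ± 0.22, a difference of 2.97 ± 0.46 (adjusted p = 0.0405). Both tissues contribute to it, with lower fat body and higher ovary libraries than in heterozygotes. CR32207, a hairpin RNA gene (arm 3L, 19477329 to 19478720), had 1 read in homozygous fat body and stood at 28.6, 27.5, 32.8 and 36.9 with ovaries, against 20.8, 13.3, 10.03 and 8.60 and 41.2, 45.5, 49.8 and 55.1 in heterozygotes. The difference of its folds was 2.87 ± 0.45 (adjusted p = 0.0405).

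hdly (arm 3R, 20914296 to 20929213) held 59.7, 102, 43.9 and 56.9 in fat body and 349, 346, 419 and 370.3 with ovaries, against 272, 253, 331.99 and 313 and 469, 424, 595 and 528 in heterozygotes, a difference of 1.77 ± 0.28 (adjusted p = 0.0405). For CR32207 and hdly both tissues were lower than in heterozygotes in every library, fat body by more. wb, a laminin alpha chain gene of basement membranes (arm 2L, 14263027 to 14328262), went the other way. It stood at 9.18, 7.28, 3.90 and 8.98 in fat body and 16.2, 17.2, 11.7 and 9.42 with ovaries, against 2.83, 13.3, 5.57 and 7.52 and 96.5, 98.8, 153 and 144 in heterozygotes. Its tissue fold was 0.83 ± 0.36 here (adjusted p = 0.135) and 4.03 ± 0.39 there, a difference of -3.20 ± 0.53 (adjusted p = 0.0468). These 4 calls sit close to the threshold. Over the alternatives run, wb was called in 4 of 24, CR32207 in 6 of 24, and Spc105R and hdly in 8 of 25 each. With the replicate block 0 genes were called, with 306 at an unadjusted p below 0.05, also fewer than 1 in 20.

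**Figure D4:**
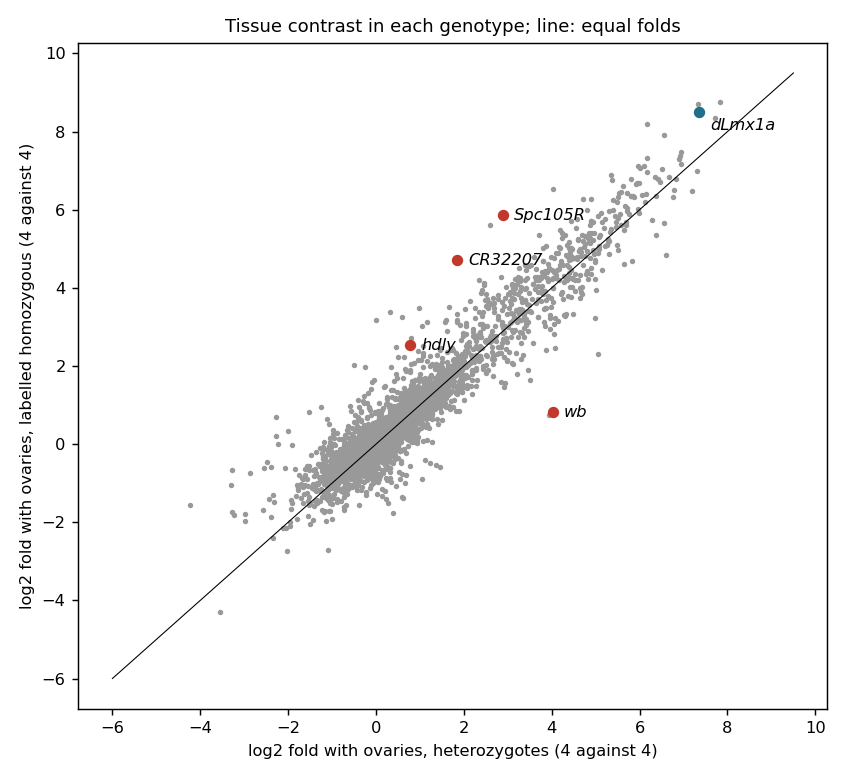
Each point is 1 of the 7816 genes, with its log2 fold with ovaries in heterozygotes on the x axis and in the libraries labelled homozygous on the y axis, and the line marks equal folds. Spc105R, CR32207 and hdly lie above the line, wb lies far under it at 4.03 against 0.83, and dLmx1a lies at 7.35 against 8.51.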

How the data were processed

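RNA was taken from fat body and from fat body with ovaries of females labelled heterozygous or homozygous for a dLmx1a knock-out, with 4 libraries per group. Per the submitters' processing notes, the tools were Trimmomatic 0.36, STAR 2.5.2b and featureCounts of Subread 1.5.0p3, with the dm6 genome. The sources used here do not give the strand setting, the annotation counted or the handling of shared reads, so a gene and an overlapping or antisense partner cannot be told apart. The deposited signal of each gene is its read count divided by a size factor per library, as DESeq2 normalises counts. All values above 0 (100%) were whole multiples, within 1e-06, of what 1 read is worth in their library, so reads per library were recovered. Totals were 19022106, 25626398, 32755588 and 29950115 in fat body and 23770813, 21174083, 27484950 and 28340693 with ovaries.

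Genes with a mean of at least 10 over the 8 libraries were kept, which a gene read only with ovaries meets at a mean of 20. log2(normalised count + 1) was compared with limma 3.58.1 (intensity trend, 2-sided, Benjamini-Hochberg over 7816 genes, called below 0.05). Fold changes are on that scale and understate the change of low genes. The difference between the genotypes' tissue folds was tested in a fit over all 16 libraries. These limma fits, without a block, were tested on simulated counts that were independent between libraries. The blocked, edgeR and DESeq2 fits and the fit of the heterozygotes alone were not simulated. edgeR 4.0.16 and DESeq2 1.42.0 on the recovered reads, other scalings, pseudocounts, filters and omissions of single libraries were alternatives.

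Same-numbered libraries of both tissues deviated together, with correlations of 0.612, 0.429, 0.216 and 0.48 for replicates 1 to 4 over 7816 genes. The numbers, given in the titles, were therefore taken to pair libraries, and the fit with the replicate block is given beside a gene whose call it changes and a list whose count of calls it moves by over 1.5 times.

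The members and the 36 gene lists were chosen with earlier results of these data known. The genes described are CG32105; the 10 named genes with the largest rise and the 10 with the largest fall that were called, did not overlap and reached a mean of 50 in their higher group; the 10 called genes with the largest gain in counts; named genes with no read in fat body; up to 4 members per list by adjusted p; and up to 5 genes called between genotypes. Any other gene was added after its values were seen. Coordinates are from the Ensembl annotation of the dm6 assembly, which placed 7723 of the tested genes by symbol. Levels per kilobase use the length of all exons merged. A fold against libraries without a read is a lower bound against a floor of 3 reads per library. Sequences and promoter motifs were not used here.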

Additional observations from a re-analysis of the deposited data

Results flagged for a closer look

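In 12 of 248 groups of 4 libraries examined among the genes described, 1 library lay further from the other 3 than Dixon's 95% limit allows; chance gives about 1 in 20. Fat body replicate 4 held 5 of them. It was the highest for Ect3 at 2190 normalised counts, for tj at 9.98, and for Wnt2 and otk at 0.998, which is 1 read in each, and the lowest for spn-E at 1.996. Fat body replicate 3 held 3, being the highest for RpS10a at 2.92 and zpg at 0.974 and the lowest for achi at 39.0. Fat body replicate 1 was the highest for RPA2 at 141. With ovaries, replicate 1 was the lowest for apt at 130, replicate 2 the lowest for mia at 33.2 and replicate 3 the highest for ihog at 278.

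The tissue fold differed between genotypes, by the test of the difference itself, for 4 genes. It was larger in the libraries labelled homozygous for Spc105R (2.97 log2 units), CR32207 (2.87) and hdly (1.77), and smaller for wb (-3.20). Each gene's adjusted p lay between 0.0405 and 0.0468. The dLmx1a allele and the TM3-GFP balancer of the heterozygotes cannot be told apart in this comparison.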

How the results depend on the processing

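Genes called higher (1258) stayed within 1.5 times of that count under all alternatives but equal totals, which gave 2922, and ran from 979 to 1664 with single libraries left out. Genes called lower (501) were 24 at equal totals, 1904 with the replicate block, 947 with DESeq2, 438 with edgeR and 1030 in a fit over all 16 libraries, and ran from 213 to 1038 with single libraries left out. Genes at least 1 log2 unit higher (861) were 507 with a mean minimum of 50, 1310 at equal totals and 755 to 1040 with single libraries left out. The 4 differences between genotypes became 0 with a pseudocount of 0.5, 0 with a mean minimum of 50, 0 at equal totals and 0 with the replicate block (173, 112, 169 and 306 genes at an unadjusted p below 0.05), 20 with DESeq2, 4 with edgeR and 0 to 7 with single libraries left out. Each of the 173, 112, 169 and 306 was under 1 in 20 of the genes tested.

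Of 124 genes described by rule 118 were called, and 88 kept their side of the threshold under all 18 alternatives. Beside LM408 and Ubx, which fell with the block, the replicate pairing changed no other call among them. At equal totals 5 falls turned sign, et (0.019), Gapdh1 (0.015), Atg4a (0.043), Atg9 (0.023) and crq (0.021), and 16 calls ended. The cause of these changes was not tested, beyond the shift of the median log2 fold from -0.05 to 0.37 at equal totals. Low counts in fat body limit the folds of genes with few reads there.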

Other observations

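Some families stood out only after the values were seen, and are given whole as descriptions. All 8 augmin subunit genes, which build microtubule branches in the spindle, rose with ovaries, with a median log2 fold of 4.45 and msd1 at 5.77 ± 0.40. Of 14 centriole genes 12 rose, among them Poc1 at 6.79 ± 0.37, while cnn (-0.14 ± 0.42) and cp309 (-0.29 ± 0.29) did not pass. With the replicate block cp309 fell (adjusted p = 0.0183). The 4 odd-skipped family transcription factor genes rose, led by drm at 5.34 ± 0.16, from a mean of 22.8 to 968 normalised counts. Of 14 meiotic chromosome genes 9 were tested and all 9 rose, among them ord at 6.05 ± 0.50 and c(3)G at 3.32 ± 0.25. Some, as cona with no read in fat body, reached the minimum for testing only through the libraries with ovaries. Genes under it included mei-W68, with means of 8.22 in fat body and 9.98 with ovaries, and hdm, with 1.68 and 18.0. Of 14 eggshell and yolk uptake genes 8 were tested and 6 rose, including the yolk receptor gene yl at 3.995 ± 0.40. The 6 that rose had means of 0.856 to 5.20 in fat body. They too reached the minimum for testing only through the libraries with ovaries. The yolk protein gene Yp2 gave 0.10 ± 0.26, and Yp1, psd and the Vm genes of the list were too low to test. With the block Yp3 fell (adjusted p = 0.0138).

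Of 6 FGF genes 4 rose and 1 fell. The ligand gene ths rose by 6.42 ± 0.49, the receptor gene htl by 2.68 ± 0.47 and its adaptor stumps by 3.22 ± 0.25, and the other receptor gene btl was the fall. Of 16 tested axon guidance genes 10 rose, among them NetA (5.20 ± 0.22), sli (4.28 ± 0.25), drl (5.16 ± 0.37) and Sema-2a (4.47 ± 0.17). With the block robo rose too (adjusted p = 0.0408), and fra (adjusted p = 0.00469) and Sema-1b (adjusted p = 0.0307) fell. Of 5 Fat and Dachsous pathway genes 4 rose, led by ds at 5.77 ± 0.22, and app fell (-0.47 ± 0.11). Of 21 nucleoporin genes 15 rose with a median of 0.99, and 20 did with the block, as did 20 without fat body replicate 1. Of the importin alpha genes Pen rose by 5.98 ± 0.43, Kap-alpha3 fell (-0.28 ± 0.079) and Kap-alpha1 gave -0.16 ± 0.098. Of 48 tested cytochrome P450 genes 9 fell, and 20 did with the replicate block. Over all genes tested 6.41% were lower, and 24.4% with the block. Of 5 NimB genes NimB2 (-0.63 ± 0.11) and NimB3 (-0.63 ± 0.16) fell, and all 5 did with the block. At equal totals 3 P450 genes fell, and app, Kap-alpha3, NimB2 and NimB3 were not called.

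By chromosome, the share of tested genes called higher was 15.3% on arm 2L, 14.4% on 2R, 16.6% on 3L, 17.5% on 3R, 16.4% on X and 11.1% on 4, the last over 63 genes. Of 118 tested noncoding RNA genes 2 were higher and 13 lower (1.69% and 11.0%), against 16.3% and 6.37% of protein-coding genes. Of the 861 genes that rose by at least 1 log2 unit 706 were in no list, and 263 carried a CG or CR number in place of a name.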
